A study of Bos taurus with 6 samples.

Results

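The replication-dependent histone genes of bovine oocytes were chosen by symbol: every gene whose deposited symbol begins with HIST, a cluster number from 1 to 4 and H. The rule found 30 of the 17325 genes in the files, 5 of them for H1, 10 for H2A, 10 for H2B, 4 for H3 and 1 for H4. The RNA is that of Bos taurus oocytes at metaphase II after maturation in vitro, the stage at which the egg waits for fertilization. The labels name 3 negative control libraries (NC) and 3 libraries of an MTFP1 knockdown (siMTFP1), and MTFP1 is a mitochondrial inner membrane protein tied to fission. Both groups are oocytes, and the labels state no breed, donor age, number of pooled oocytes, reagent sequence, dose or time. They are called control and knockdown here after their labels, each with replicates 1, 2 and 3. The question set by the design is how the transcriptome differs between the groups, here for the histone genes.

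Histones H2A, H2B, H3 and H4 form the core around which DNA is wound, and H1 binds the linker DNA between cores. Replication-dependent histone genes lie in clusters, are used mostly in S phase, and give short mRNAs that usually end in a conserved stem-loop in place of a poly(A) tail. The stem-loop is bound by SLBP, and oocytes of several animals store histone mRNA for the rapid divisions of the early embryo. Some of these genes also give longer transcripts with a poly(A) tail.

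Levels are FPKM, which divides the fragments of a gene by transcript length and by the mapped fragments of its library, so levels can be compared between genes per length. No sequencing depth accompanies FPKM, and no counting interval could be given. Low values had their commonest ratio within 0.1 log2 units of equality in 15 of 15 pairs of libraries. That is only a weak hint that depths were alike, since FPKM is already divided by the mapped fragments. Pairwise correlations of log2 levels across genes, which are not independent replicates, lay between 0.971 and 0.986. The target MTFP1 was at 0.53, 0.55 and 0.05 FPKM in the libraries labelled control 1, 2 and 3, and at 0.43, 0.58 and 1.15 in those labelled knockdown 1, 2 and 3. The groups overlapped (p = 0.4 in a two-sided exact permutation test whose smallest p is 0.1), so MTFP1 did not follow the labels in these values. Its mean of 0.548 FPKM over the 6 libraries lay below the 1 FPKM set for the limma test. At that level neither a knockdown nor its absence can be read. Every direction here is that of the labels. Of 19 matched oocyte markers all had a mean of at least 1 FPKM. They summed to 33956 to 35415 FPKM under the control label and 32910 to 33854 under the knockdown label, without overlap. Among them only ZP2 and NOBOX separated the groups singly, so the sums do not show the markers lower as a set. ZP2, at 4427 to 4768 against 3053 to 3241 FPKM, was lower in every knockdown library and made up most of the gap in mean sums. NOBOX, at 1.45 to 1.94 against 1.97 to 2.82, was higher. The 30 cumulus and granulosa markers, of which 17 had a mean of at least 1 FPKM and 0 were at 0 in every library, summed to 194 to 405 FPKM under the control label and 235 to 1225 under the knockdown label. The highest sum belonged to knockdown 2, where TIMP1 alone stood at 955 FPKM, and the granulosa genes FSHR, AMH and FOXL2 were at or below 0.18 FPKM everywhere. Other granulosa genes were present, with INHA at 0.65 to 1.99 FPKM in control and 1.42 to 15.7 in knockdown. SERPINE2, at 13.3 to 16.4 against 18.0 to 43.1 FPKM, was higher in every knockdown library, and NR5A2, at 0.52 to 1.31 against 0.28 to 0.42, lower. The part of these cells in the histone values was not tested. In such bulk samples fewer cells of a type and less RNA per cell cannot be told apart.

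As a group the histone genes were unevenly represented in the libraries, and H2A and H1 made up most of their signal in both groups. The 30 genes together summed to 6352, 5933 and 8734 FPKM in control 1, 2 and 3, and to 6214, 7659 and 10166 in knockdown 1, 2 and 3. That was 0.704% to 1.14% of all FPKM in a library. H2A took 63.5% to 74.3% of the histone sum, H1 17.6% to 27.9%, H2B 3.83% to 5.49%, and H3 and H4 at most 1.31% and 2.45%. The nucleosome core holds equal numbers of the core histone proteins, whereas in RNA of the rule's genes the H2A sum was 12.5 to 17.8 times the H2B sum. These shares and this ratio hold for the genes that the symbol rule finds, and more H2B and H4 signal lay in genes outside it, described further on. With those genes added the sums were 4063 to 6796 FPKM for H2A and 422 to 635 for H2B, a smaller ratio in every library. Use of poly(A) selection and the division of reads between near-identical copies are not given. The shares therefore need not be those of the histone mRNA in the oocyte.

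The family sums did not separate the groups. They are given without a test, because near-identical copies share reads and a sum over chosen genes is a score of the choice. H1 summed to 1347, 1454 and 1965 FPKM in control 1, 2 and 3 and to 1091, 2139 and 2692 in knockdown 1, 2 and 3, so knockdown held both the lowest and the highest library. H2A summed to 4505, 4045 and 6211 in the control libraries and to 4616, 4867 and 6768 in the knockdown libraries. Replicate 3 of each group was the highest for both families. H2B summed to 349, 235 and 348 against 324, 390 and 390 FPKM, with control 2 apart from the rest. H3 summed to 83.2, 70.8 and 92.9 against 62.0, 76.0 and 80.8 FPKM, and it was the family with the lower mean in knockdown. H4, here the single gene HIST1H4D, stood at 67.6, 128.5 and 117 against 122, 188 and 236 FPKM.

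On the log2(FPKM + 1) scale the difference of knockdown minus control was 0.24 for H1, 0.14 for H2A, 0.26 for H2B, -0.17 for H3 and 0.80 for HIST1H4D. The pooled replicate SD on that scale was 0.52, 0.31, 0.26, 0.20 and 0.49 in the same order. The groups overlapped in all 5 families and in the sum of the 30 genes, whose difference was 0.19 with an SD of 0.33. Without knockdown 3 the differences turned to -0.04 for H1, -0.03 for H2A and -0.0012 for all 30. The H2B difference was 0.07 and the H2A difference 0.013 without control 2, and the H3 difference was -0.06 without knockdown 1 and -0.08 without control 3. Without the most abundant member they turned to -0.08 for H1, -0.06 for H2A and -0.30 for H2B, so the higher means of these sums rested on a single gene each.

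**Figure D1:**
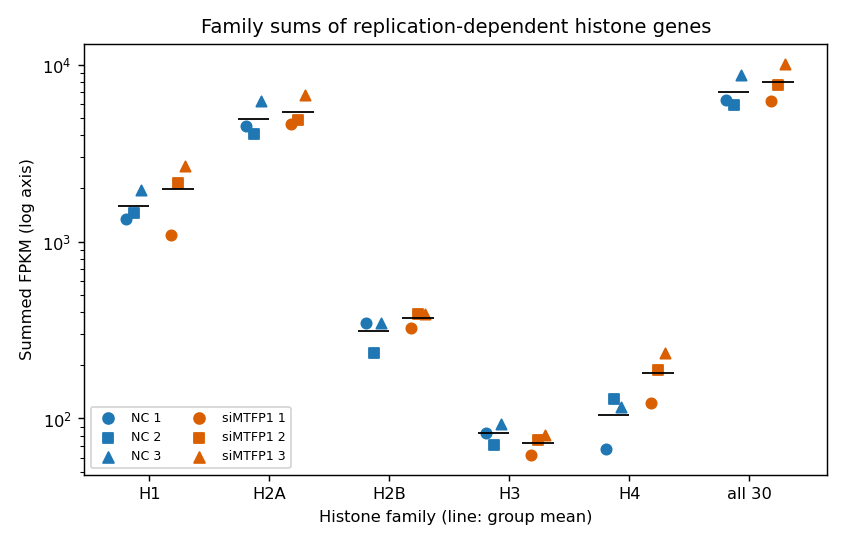
Summed FPKM (log axis) of the 5 histone families and of all 30 genes in each library; points are libraries and lines are group means. The groups overlap in every family, and replicate 3 of both groups is highest for H1, H2A and all 30 genes.

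The limma test on log2(FPKM + 1) over 9730 genes with a mean of at least 1 FPKM called 0 genes at a Benjamini-Hochberg adjusted p under 0.05, which is 0% of those tested, and 0 of the 24 histone genes that were tested. At an unadjusted p under 0.05 it gave 635 genes (6.53%), of which 376 (3.86%) had a higher and 259 (2.66%) a lower knockdown mean, a split that became 307 and 358 under quantile normalization. Among the 24 tested histone genes 2 were higher and 4 lower at that level, 8.33% and 16.7% of them. Both counts rest on few genes, and their balance depended on single libraries: it was 3 higher and 2 lower without control 3, 4 and 3 without knockdown 1, 1 and 2 without knockdown 2, and 1 and 6 without knockdown 3. Groups did not overlap in 1 histone gene that was higher (4.17%, against 5.97% of all tested genes) and in 3 that were lower (12.5%, against 5.05%). Over the 24 genes 11 had a higher and 13 a lower mean, with a median log2 difference of -0.09, beside 54.2% higher and a median of 0.02 over all tested genes. That median was 0.06 without control 3 and 0.0020 without knockdown 3. Nothing in the labels ties the replicates to separate cultures or animals. These p-values therefore measure only the spread between the samples, which may be technical.

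**Figure D2:**
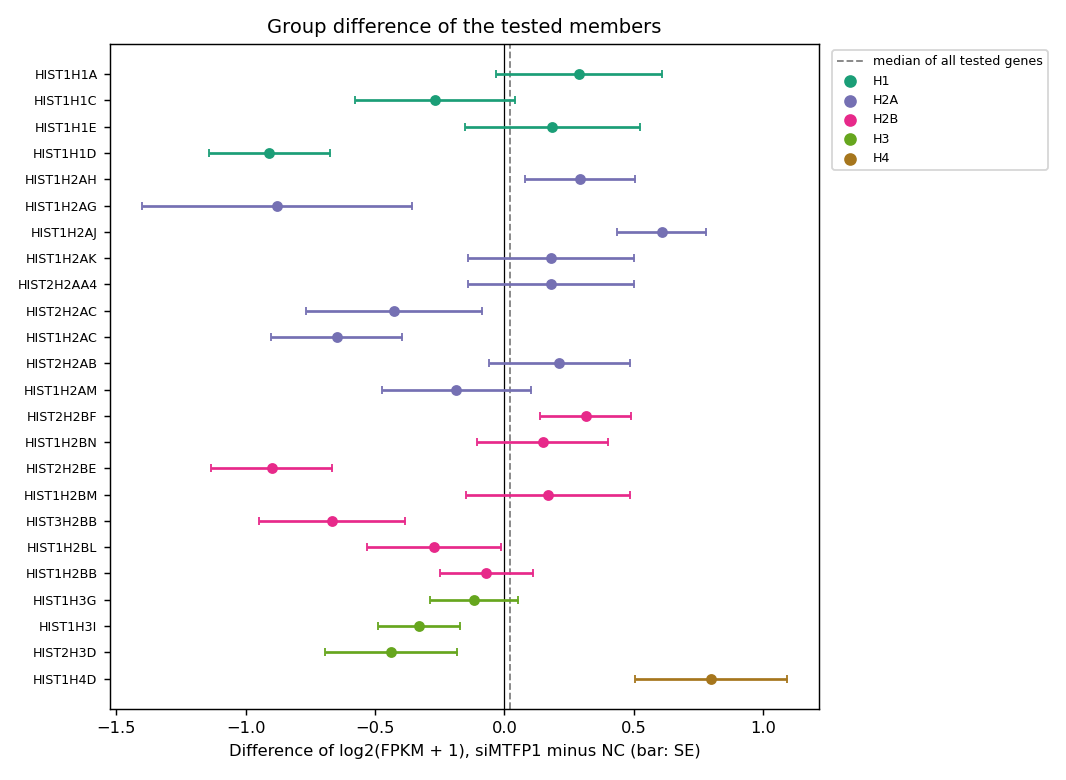
Difference of log2(FPKM + 1), knockdown minus control, for the 24 tested histone genes, with the standard error of the limma fit as bars and the median of all tested genes as a dashed line. HIST1H1D and HIST2H2BE lie near -0.9 and HIST1H2AJ and HIST1H4D above 0.6, and 0 of the 24 passed the adjusted threshold.

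Among the linker histones HIST1H1A (gene ID 618164, H1-1 in RefSeq) dominated. It stood at 1109, 1291 and 1613 FPKM in control 1, 2 and 3 and at 916, 1901 and 2411 in knockdown 1, 2 and 3, or 82.1% to 89.6% of the H1 sum. The knockdown libraries spanned the whole range of the control ones, and the log2 difference of 0.29 (SE 0.32, limma adjusted p = 0.919) was -0.0021 without knockdown 3. HIST1H1C was at 135, 101 and 175 against 67.8, 132 and 152 FPKM, and HIST1H1E at 95.5, 55.0 and 166 against 104, 101 and 123. Neither separated the groups, since the control libraries alone differed 3.03-fold in HIST1H1E. HIST1H1B was at 0 in 5 libraries and at 0.06 FPKM in knockdown 2.

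HIST1H1D (gene ID 509275, H1-3 in RefSeq) had the smallest p of the histone genes. Its level was 7.96, 6.62 and 10.3 FPKM in control 1, 2 and 3 and 2.68, 4.09 and 5.22 in knockdown 1, 2 and 3. Every knockdown library lay below every control library. Control averaged 8.29 ± 1.85 FPKM and knockdown 4.00 ± 1.27 (SD, n = 3). By limma the log2 difference was -0.91 with an SE of 0.23, and its adjusted p of 0.583 did not pass. Leaving out each library in turn gave -1.08 to -0.70. The oocyte linker histone H1FOO, which replaces somatic H1 in the egg and lies outside the symbol rule, was far more abundant at 6132 to 7872 FPKM over the 6 libraries.

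Among the H2A genes HIST1H2AH (gene ID 616634) was the most abundant histone gene of the rule in every library. It was at 2396, 2238 and 2983 FPKM in control 1, 2 and 3 and at 2345, 2942 and 4260 in knockdown 1, 2 and 3. The groups overlapped (log2 difference 0.29, SE 0.21, limma adjusted p = 0.884), and the difference was 0.06 without knockdown 3. Its share of the H2A sum ran from 48.0% in control 3 to 62.9% in knockdown 3. Without it the H2A genes summed to 1806 to 3228 FPKM in the control libraries and 1925 to 2508 in the knockdown libraries.

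HIST1H2AJ (gene ID 783767) was the only tested histone gene above all control libraries in every knockdown library. It stood at 437, 511 and 340 FPKM in control 1, 2 and 3 and at 568, 645 and 734 in knockdown 1, 2 and 3. Control averaged 429 ± 86.0 FPKM and knockdown 649 ± 82.9 (SD, n = 3). By limma this was 0.61 log2 units with an SE of 0.17, and the adjusted p was 0.638. The difference ran from 0.45 to 0.74 when single libraries were left out. HIST1H2AJ was also the only tested histone gene that was lowest in control 3.

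HIST1H2AG and HIST1H2AC pointed the other way, with control 3 high. HIST1H2AG was at 447, 373 and 1357 FPKM in control 1, 2 and 3 and at 192, 317 and 595 in knockdown 1, 2 and 3. By limma it differed by -0.88 log2 units with an SE of 0.52 and an adjusted p of 0.842, or by -0.30 without control 3 and -0.49 without knockdown 1. Control 3 held over 3 times the level of control 1, and in that library the gene made up 21.9% of the H2A sum against 4.17% to 9.92% elsewhere. HIST1H2AC was at 173, 133 and 280 against 112, 107 and 139 FPKM (-0.65 log2 units, SE 0.25, limma adjusted p = 0.750), or -0.35 without control 3. Knockdown 3 reached above control 2, so the groups overlapped. HIST2H2AC was likewise highest in control 3, at 227, 203 and 403 against 121, 226 and 278 FPKM.

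HIST1H2AK and HIST2H2AA4 carried the same value in each of the 6 libraries, as did no other pair of members above 0. Each was listed at 371, 224 and 345 FPKM in control 1, 2 and 3 and at 585, 244 and 292 in knockdown 1, 2 and 3. Knockdown 1 was the high library here, in contrast to the genes led by control 3 or knockdown 3. How shared reads were divided is unknown here, and counting the pair once left the H2A difference at 0.13. HIST2H2AB was at 76.8 to 144 FPKM in the control libraries and 99.5 to 173 in the knockdown libraries. The weakest H2A genes, HIST1H2AM and HIST3H2A, averaged 7.18 and 0.863 FPKM over the 6 libraries, the latter too low to be tested.

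**Figure D3:**
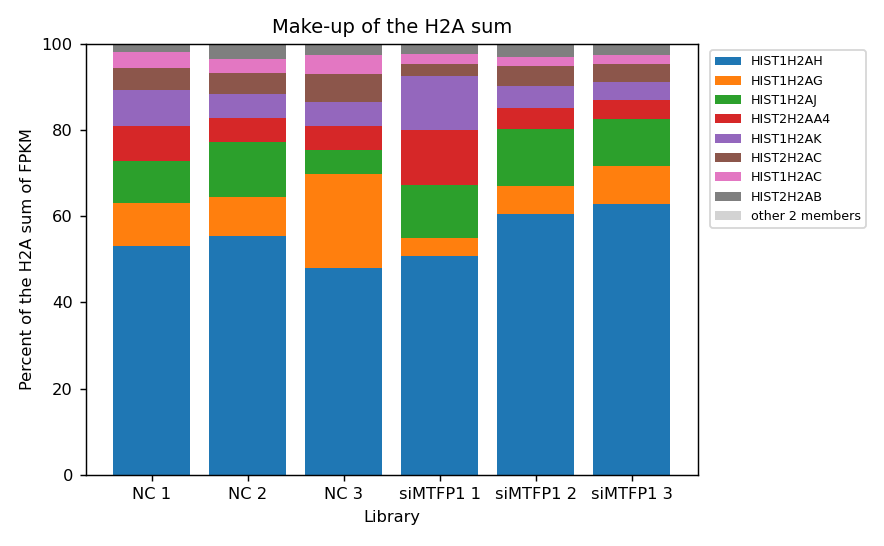
Percent of the H2A sum of FPKM that each gene took in each library, from 0 to 100. HIST1H2AH takes 48.0% to 62.9%, HIST1H2AG is widest in control 3 at 21.9%, and the pair HIST1H2AK and HIST2H2AA4 is widest in knockdown 1 at 12.7% each.

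The H2B signal rested on HIST2H2BF (gene ID 615091), which took 87.7% to 93.5% of the family sum. Its level was 318, 212 and 306 FPKM in control 1, 2 and 3 and 299, 364 and 365 in knockdown 1, 2 and 3 (log2 difference 0.31, SE 0.18, limma adjusted p = 0.828). Knockdown 1 lay below both control 1 and control 3, and without control 2 the difference was 0.13. The other 9 H2B genes had means of at most 10.9 FPKM over the 6 libraries, the highest being HIST1H2BN.

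HIST2H2BE (gene ID 537985), a gene known to give polyadenylated transcripts in differentiated cells, was at 10.6, 7.45 and 13.9 FPKM in control 1, 2 and 3. In knockdown 1, 2 and 3 it was at 6.29, 5.03 and 4.11, all below the lowest control library. Control averaged 10.6 ± 3.21 FPKM and knockdown 5.14 ± 1.09 (SD, n = 3). By limma the log2 difference was -0.90 with an SE of 0.23 and an adjusted p of 0.583, and leaving out single libraries gave -1.11 to -0.70. HIST3H2BB also separated the groups, at 2.37, 2.58 and 4.53 against 2.07, 0.75 and 2.11 FPKM, with a gap of only 0.26 FPKM between them (log2 difference -0.67, SE 0.28, limma adjusted p = 0.763). That difference was -0.39 without knockdown 2 and -0.44 without control 3. HIST1H2BM, at 1.31, 3.20 and 5.04 against 2.95, 3.88 and 3.31 FPKM, showed instead a control group as wide as the whole set. HIST1H2BL and HIST1H2BB averaged 2.39 and 1.51 FPKM with overlapping groups. HIST1H2BD, HIST1H2BI and HIST1H2BJ averaged under 0.3 FPKM and were not tested.

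H3 genes named by the rule were scarce, and all 3 that were tested had lower knockdown means. HIST1H3G was at 61.04, 51.9 and 71.4 FPKM in control 1, 2 and 3 and at 47.1, 61.5 and 60.8 in knockdown 1, 2 and 3 (log2 difference -0.12, SE 0.17, limma adjusted p = 0.944). HIST1H3I was at 19.3, 17.0 and 19.0 against 13.04, 13.3 and 17.3 FPKM (log2 difference -0.33, SE 0.16, limma adjusted p = 0.781), where knockdown 3 just passed control 2. HIST2H3D was at 2.82, 1.96 and 2.23 against 1.82, 0.66 and 2.14 FPKM (-0.44, SE 0.25, limma adjusted p = 0.839), and HIST1H3C averaged 0.242 FPKM. The HIST2H3D difference was -0.16 without knockdown 2. That of HIST1H3G was 0.0042 without knockdown 1 and -0.0056 without control 3. None of the 3 separated the groups. The replication-independent H3.3 genes H3F3A and H3F3B, outside the rule and shown for scale, averaged 1056 and 1770 FPKM. H3F3A was at 947 to 1039 FPKM in control and 1060 to 1190 in knockdown, without overlap (log2 difference 0.15, SE 0.11, limma adjusted p = 0.884). The variant H2AFX, also outside the rule, was at 420, 292 and 361 FPKM in control 1, 2 and 3 and at 197, 233 and 264 in knockdown 1, 2 and 3 (log2 difference -0.62, SE 0.17, limma adjusted p = 0.607), without overlap. H2AFX was named after its values were seen. The other H2A variants looked up, H2AFZ and H2AFV, overlapped, with log2 differences of 0.49 and -0.09.

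HIST1H4D (gene ID 100337407), the only H4 gene of the rule, averaged 104 ± 32.3 FPKM in control and 182 ± 57.2 in knockdown (SD, n = 3). Knockdown 1 at 122 FPKM lay below control 2 at 128.5, so the groups overlapped. Its log2 difference of 0.80 was the largest higher one of the 24 tested genes (SE 0.29, limma adjusted p = 0.750). It was 0.51 without control 1 and 0.58 without knockdown 3.

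**Figure D4:**
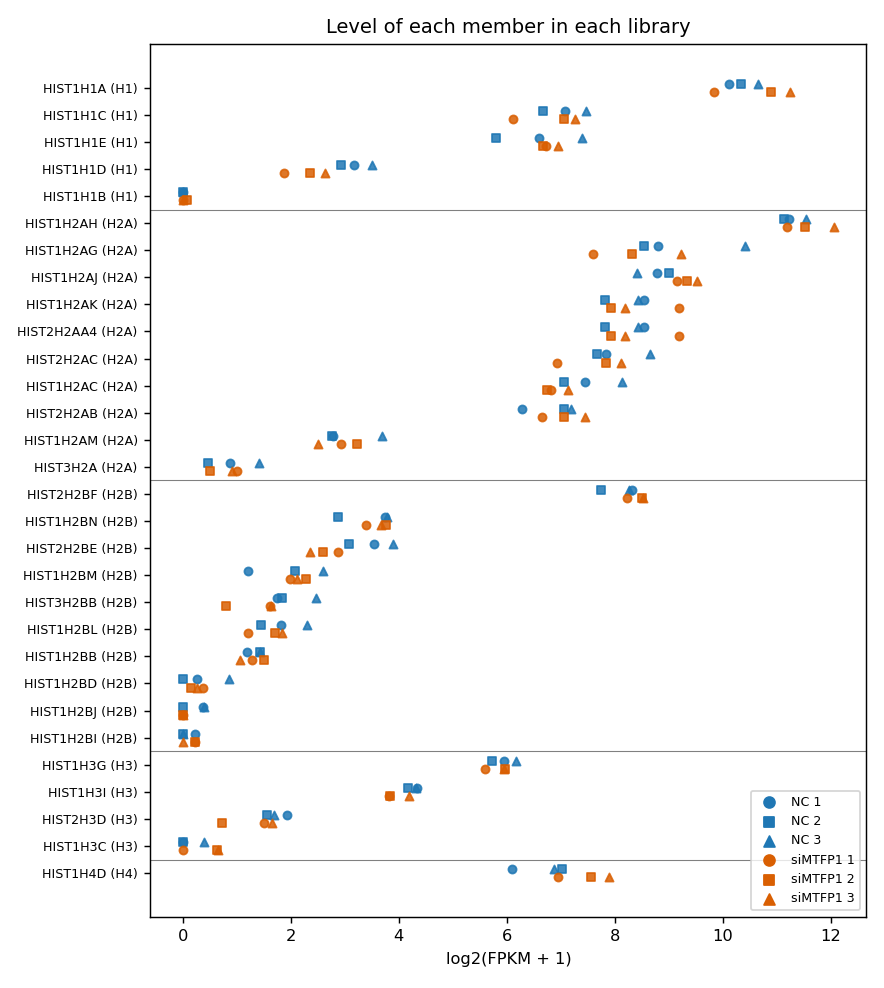
Level of each of the 30 histone genes in each library as log2(FPKM + 1), ordered by family and mean, with shape giving the replicate number and colour the group. HIST1H2AH and HIST1H1A stand at the top, H2B other than HIST2H2BF lies low, and control 3 is the rightmost point for 13 of the 24 tested genes.

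The histone genes tended to share an order of libraries. Control 3 was the highest of the 6 libraries in 13 of the 24 tested histone genes, whereas it was the highest in 12.7% of all tested genes. Knockdown 3 was the highest in 6, among them HIST1H1A, HIST1H2AH, HIST1H2AJ and HIST1H4D, against 15.5% of all tested genes. Knockdown 1 was the lowest in 8, for which the share over all tested genes was not computed. Within its group, replicate 3 led in 17 of 24 genes for control and in 16 for knockdown, against 22.8% and 29.9% of all tested genes. The median histone gene was 0.32 log2 units above the other libraries in control 3 and 0.15 above in knockdown 3, where the median of all tested genes was -0.09 and -0.02. The 16 DNA replication and proliferation markers summed to 1389, 1582 and 1530 FPKM in control 1, 2 and 3 and to 1393, 1445 and 1516 in knockdown 1, 2 and 3, so that replicate 3 was the highest in knockdown and control 2 in control. The 11 matched leukocyte, erythroid and endothelial markers, of which 4 had a mean of at least 1 FPKM and 0 were at 0 in every library, summed to 61.3, 86.0 and 86.9 FPKM in control 1, 2 and 3 and to 35.6, 41.3 and 78.8 in knockdown 1, 2 and 3. Replicate 3 was thus the highest of its group here too, mostly through the haemoglobin gene HBA at 74.1 and 57.9 FPKM. Their part in the histone levels was not tested.

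The gene order of RefSeq, assembly ARS-UCD2.0, placed 29 of the 30 genes, HIST1H2BM being unmatched. By chromosome they fell into a set of 18, a set of 7, a pair and 2 lone genes. A set holds the members on the same chromosome, and other genes may lie between them. The set of 18 holds only HIST1 genes. HIST1H2AK and HIST1H2BL, despite their names, lie among the HIST2 genes, and HIST1H4D and HIST2H3D were each the only member on their chromosome. Direct neighbours often differed widely in level, though HIST2H2AB and HIST2H2AC were closer, at means of 126 and 243 FPKM. HIST1H2AH averaged 2861 FPKM over the 6 libraries and its neighbour HIST1H2BN 10.9. HIST2H2AA4 averaged 344 FPKM and its neighbour HIST1H2BL 2.39, and HIST2H2AC averaged 243 beside HIST2H2BE at 7.89. In each of these H2A and H2B neighbours the H2A gene was the more abundant one, while in the pair HIST3H2BB and HIST3H2A it was the weaker, at 0.863 against 2.40 FPKM.

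The members were also split by the span of the gene in RefSeq, a property that the rule did not use. Of 7 tested genes spanning over 1000 bases, 6 were lower in knockdown by their mean, with a median log2 difference of -0.27. Of 16 tested genes up to 1000 bases, 7 were lower and 9 higher, with a median of 0.16. The boundary of 1000 bases was chosen after the values were seen and no test was made. Of the 18 tested histone genes outside the rule, described further on, only 2 span over 1000 bases, too few to show whether the split recurs. Of those 2, 1 was higher and 1 lower, with a median log2 difference of -0.31. Up to 1000 bases 7 were higher and 9 lower, with a median of -0.07. Longer genes include HIST1H1D at 3658 bases, HIST2H2BE at 2328 and HIST1H2AC at 10184, and HIST1H1E at 1199 is the exception. The spans come from another build than that of the deposited values and may include introns. Level went with direction as well, since 7 of the 8 genes averaging 1 to 10 FPKM had a lower mean in knockdown and 9 of the 13 averaging over 100 had a higher one. The latter counts include both HIST1H2AK and HIST2H2AA4, whose values are identical. All tested genes were not split by level, so whether this is particular to histone genes is unknown.

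**Figure D5:**
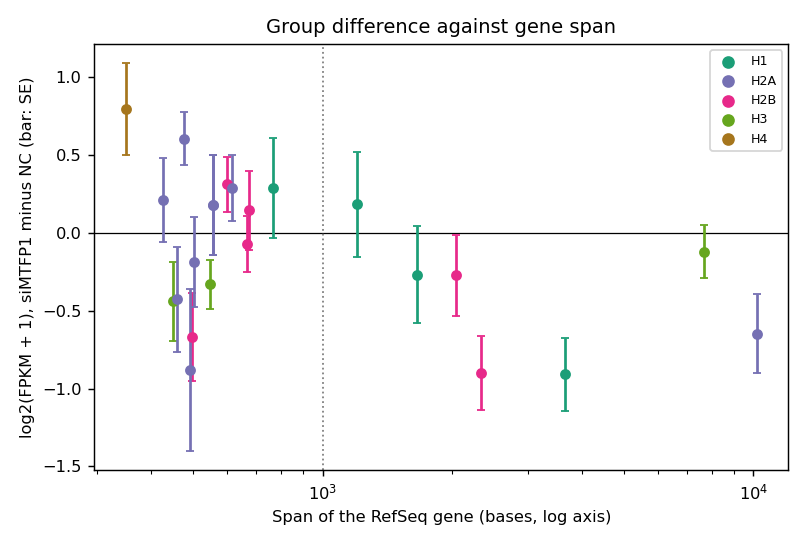
Difference of log2(FPKM + 1), knockdown minus control, with its standard error, against the RefSeq span of the gene in bases (log axis) for 23 tested histone genes; the dotted line is at 1000 bases. To its right 6 of 7 genes lie below 0, to its left 7 of 16.

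The files hold another 30 genes that RefSeq now names as clustered histone genes (symbols H1-1 to H1-6, H1-12, H2AC, H2BC, H3C and H4C) and that the deposited symbols leave out of the rule. Of these 3 carry a HIST name behind the prefix gene-, and most others a LOC number. With them the H4 sum was 372, 415 and 664 FPKM in control 1, 2 and 3 and 468, 473 and 582 in knockdown 1, 2 and 3, chiefly through LOC617905 (H4C1 in RefSeq) at 236 to 384 FPKM. The H4 difference was 0.11 in place of 0.80, and that of LOC617905 alone was -0.21. The H2B sum became 557, 422 and 635 against 475, 594 and 621 FPKM, and its difference 0.08. Those of H1, H2A and H3 were 0.24, 0.14 and -0.20.

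Of the 18 tested genes outside the rule 8 were higher and 10 lower in knockdown by their means, with a median log2 difference of -0.07, and 0 passed the adjusted limma threshold. Among the lower ones LOC616868 (H2BC14) averaged 2.94 FPKM in control and 0.963 in knockdown, so it passed the filter only through control. The groups did not overlap in 1 that was higher and 3 that were lower (5.56% and 16.7%, against 5.97% and 5.05% of all tested genes). They were chosen for naming by that separation, after their values were seen. The H2B gene gene-HIST1H2BB (H2BC15) was at 92.6, 87.7 and 121 FPKM in control 1, 2 and 3 and at 39.9, 58.3 and 81.9 in knockdown 1, 2 and 3. It was the most abundant of the lower ones (log2 difference -0.78, SE 0.25, limma adjusted p = 0.698). The H3 gene LOC504599 (H3C13) was at 4.73, 5.01 and 8.21 against 3.67, 2.51 and 1.64 FPKM. The H2A gene LOC104975683 (H2AC7) was at 5.26, 5.16 and 11.9 against 2.19, 3.20 and 4.31, and the H4 gene LOC527388 (H4C8), the higher one, at 3.27, 3.30 and 3.89 against 4.27, 5.05 and 5.07. All but the first of these 4 genes were low in both groups.

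Most genes of the machinery that makes and trims histone mRNA were measured, and 0 passed the threshold. In the list for histone mRNA transcription, 3 prime processing and decay, 36 of 42 matched genes were tested. Of these 14 were higher (38.9%, against 54.2% of all tested genes) and 22 lower in knockdown by their means, with a median log2 difference of -0.02. The other 6, CPSF1, CSTF2T, CTIF, NPAT, SRRT and SYMPK, averaged under 1 FPKM, and CTIF was listed at 0 in all but knockdown 2. By limma 0 passed adjusted over all tested genes and 0 had an unadjusted p under 0.05, against 6.53% of all tested genes. SLBP2, the oocyte form of the stem-loop binding protein, was at 642, 631 and 730 FPKM in control 1, 2 and 3 and at 618.5, 502 and 658 in knockdown 1, 2 and 3 (log2 difference -0.18, SE 0.14, limma adjusted p = 0.884). Its somatic counterpart SLBP, named after its values were seen, was far lower at 60.0 to 88.4 FPKM. The cleavage factor subunit CSTF3 was at 29.4, 31.8 and 27.2 against 41.8, 34.7 and 34.6 FPKM, the only tested gene of this list whose groups did not overlap (log2 difference 0.32, SE 0.14, limma adjusted p = 0.766). That is 2.78% of the list, below the 5.97% of all tested genes. The cap binding subunit NCBP2 had a log2 difference of 0.48 and its partner NCBP1 one of -0.23. The S phase regulators E2F1 and CCNE2 had differences of 0.31 and -0.48. NPAT, the coactivator of histone gene transcription, averaged 0.900 FPKM in control and 0.843 in knockdown. DIS3L2, counted among the higher genes, averaged 0.833 FPKM in control and 1.18 in knockdown, so it passed the filter only through knockdown. These low genes were named after their values were seen.

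Histone chaperones, importers and deposition factors also gave 0 genes past the threshold. Of 37 matched genes 32 were tested. By their means 21 were higher in knockdown (65.6%, against 54.2% of all tested genes) and 11 lower, with a median log2 difference of 0.07. By limma 1 had an unadjusted p under 0.05 (3.12% of the list, in the higher direction, against 3.86%). That gene, CABIN1 of the H3.3 deposition complex, was at 0.92, 1.32 and 0.90 FPKM in control 1, 2 and 3 and at 1.39, 1.64 and 2.13 in knockdown 1, 2 and 3. CABIN1 and IPO9 were the 2 tested genes of this list without overlap, both higher (6.25%, against 5.97% of all tested genes). IPO9, named after its values were seen, was at 2.25 to 2.41 FPKM in control and 2.90 to 2.95 in knockdown. CHAF1B, a subunit of the replication-coupled assembly factor, had a log2 difference of 0.48. It averaged 0.933 FPKM in control and 1.65 in knockdown, so it passed the filter only through the knockdown libraries. The nucleoplasmin NPM3 had a difference of 0.27. On the lower side stood the H2A and H2B chaperone NAP1L4 at -0.27, the histone importer IPO7 at -0.21 and the H3 and H4 chaperone DNAJC9 at -0.22. Adjusted p-values of all these genes lay between 0.764 and 0.894 (limma with Benjamini-Hochberg).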

How the data were processed

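Messenger RNA libraries were made from TRIzol-extracted total RNA of bovine oocytes with a dual-mode kit of BGI, per the labels' protocols. Use of poly(A) selection, not given in the sources used here, matters for histone mRNA without a poly(A) tail. The authors deposited FPKM with 2 decimals for 17325 genes in each of 6 libraries. RSEM 1.3.1, Bowtie2 2.3.4.3, HISAT2 2.2.1, DESeq2 1.4.5 and the build ARS-UCD1.2 appear in the submitters' processing notes without their roles. The sources do not give strand use or how reads of near-identical copies were divided, so histone genes that are alike or overlap have uncertain values. FPKM keeps no read total, so depth is unknown.

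Groups were taken from the titles. IDs matched the RefSeq table of ARS-UCD2.0 for 17087 genes, and 24 symbols turned into dates were restored from it. The table served for names, gene order and spans, and coordinates are not printed. Sequences were not used here. The 9730 genes averaging 1 FPKM or more were tested as log2(FPKM + 1) with limma 3.58.1 in R 4.3.3 (eBayes with trend, two-sided, group as the only term) and Benjamini-Hochberg adjustment over all tested genes at 0.05. The scale understates changes of low genes. All 24 tested members passed the filter in both groups' means. CHAF1B, DIS3L2 and LOC616868, outside the rule, passed it through 1 group only. The limma step was tested on simulated data first. Family sums are plain sums of FPKM. The members and lists were chosen with earlier results of these data known. Text names the 4 most abundant genes of each family and the 5 with the smallest p in each direction. It also names up to 3 per direction of 2 pathway lists, and MTFP1. Other members and genes were added after their values were seen, mostly to account for all 30 or for scale. Alternatives were pseudocounts 0.1 and 5, no filter or a minimum of 5, 3 scalings, the replicate number as a block, eBayes without trend, other ways to sum and leaving out each library. Tables and plots used Python 3.11.15, pandas 2.3.3 and matplotlib 3.10.9.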

Additional observations from a re-analysis of the deposited data

How the results depend on the processing

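In all 15 alternatives of the limma fit 0 histone genes and 0 genes of the pathway lists passed the adjusted threshold, and over all genes the count was 0 to 2 (2 with a minimum mean of 5 FPKM, 2 with FPKM scaled to equal sums, 0 to 2 when single libraries were left out). The histone median of -0.09 turned to 0.15 with a minimum mean of 5 FPKM and ranged from -0.22 to 0.057 when single libraries were left out. The leave-one-out ranges were 3 to 7 for genes at an unadjusted p under 0.05, 7 to 12 for genes with a higher mean, -0.037 to 0.61 for the H1 sum, -0.029 to 0.32 for the H2A sum, 0.07 to 0.35 for the H2B sum, -0.28 to -0.06 for the H3 sum, 0.51 to 1.06 for HIST1H4D and -0.0012 to 0.35 for all 30 genes. Averaging log2 values over members in place of summing FPKM turned the difference to -0.13 for H1, -0.078 for H2A, -0.16 for H2B and -0.094 for all 30. Leaving out the most abundant member turned it to -0.077 for H1, -0.055 for H2A and -0.30 for H2B, and adding all RefSeq family symbols, chosen after seeing the data, moved H4 to 0.11. The cause of these turns was not tested beyond the make-up of each sum. Among single genes the direction turned in these leave-one-out ranges: -0.0021 to 0.70 for HIST1H1A (turned without knockdown 3), -0.49 to 0.085 for HIST1H1C (knockdown 1), -0.21 to 0.58 for HIST1H1E (control 2), -0.20 to 0.43 for HIST1H2AK (knockdown 1, and -0.045 without control 2), -0.15 to 0.31 for HIST1H2BN (control 2), -0.21 to 0.49 for HIST1H2BM (control 1) and -0.23 to 0.0042 for HIST1H3G (knockdown 1). Libraries with the same replicate number did not deviate together over all genes (correlations of 0.03, -0.16 and 0.07). Among the 24 tested histone genes, though, replicate 3 led its group in 17 for control and in 16 for knockdown. Whether libraries with the same number share a culture or batch was not tested. With the replicate number as a block 0 genes passed over all and 0 histone genes, 7 histone genes had an unadjusted p under 0.05, and the median was again -0.094; not every library correlated best with its own number. MTFP1 kept a higher mean in knockdown in all 10 alternatives run for it, from 0.09 to 0.96. With a mean of 0.548 FPKM it was too low for a knockdown or its absence to be read.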
